A study of Mus musculus with 670 samples.

Results

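Skeletal stem cells were compared between old and newborn mice within a single labelled batch. Plates 2 and 12 held cells aged 24 months and plate 9 cells of postnatal day 3, all labelled batch 3. The well titles of plate 2 carry another prefix than those of plates 12 and 9, and the labels do not explain it. The members were chosen by a rule on the wells: at least 500 genes above 0, at least 50000 reads of genes other than spike-ins, and less than 20% of reads from mitochondrially encoded genes. The rule kept 47 wells of 24 months (21 on plate 2 and 26 on plate 12) and 72 of postnatal day 3, of 670 wells in the whole series. The cells came from digested long bones, were purified by flow cytometry without culture or treatment, and were sequenced singly with SmartSeq2, which reads whole transcripts. Every well is labelled male and long bone. The strain, the antibodies of the gate and the animals are not named in the labels, so an age is 1 sample, no p-value is given, and wells are not replicates of an age.

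Skeletal stem cells are sorted from bone by surface antigens and give rise to cartilage, bone and the stroma of the marrow. In the newborn, long bones still grow through cartilage templates, and imprinted genes, which are expressed from 1 parental copy, are known as regulators of fetal and early postnatal growth. In old bone, cells of this lineage are known for bone matrix genes and for marrow factors such as Cxcl12, the chemokine that holds blood stem cells in the marrow.

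Usable wells were scarcer at 24 months. On plate 9, 72 of 95 wells met the rule, a share of 75.8% with an exact 95% binomial interval from 65.9% to 84%. On the old plates together the share was 24.5%, with an interval from 18.6% to 31.2%, made up of 21 of 96 wells on plate 2 (21.9%) and 26 of 96 on plate 12 (27.1%). These intervals, like all that follow, cover counting error only, since reads of PCR copies are not independent molecules and wells of a plate may share an animal. Wells that did not pass held mostly spike-in reads, the synthetic RNA added to each well, with a median of 99% at 24 months and 98.6% at postnatal day 3. Just below the limit of 500 genes, the highest wells held 499, 496 and 443 genes on plates 2, 12 and 9. Just above it, the lowest passing wells held 501, 504 and 518.

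Cells of 24 months held fewer genes at equal depth. Passing wells had medians of 2733824, 1069889 and 1082515 gene reads on plates 2, 12 and 9, so each was thinned at random to 50000 reads before genes were counted. The median was then 559 genes on plate 2 and 539.5 on plate 12, against 1717.5 on plate 9. Wells ranged from 338 to 1733 genes at 24 months and from 507 to 3325 at postnatal day 3. The ranges overlapped, but 1 of 47 wells of 24 months lay above the newborn median. Only 10 of the 47 held at least 1000 genes with all reads, against 68 of 72. The spike-in share of passing wells also differed, with medians of 6.34%, 19.1% and 4.64% on plates 2, 12 and 9. Fewer molecules per cell and fewer genes in use cannot be told apart here, and the part of this gap in the differences below was not tested beyond the setting at equal gene number.

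**Figure D1:**
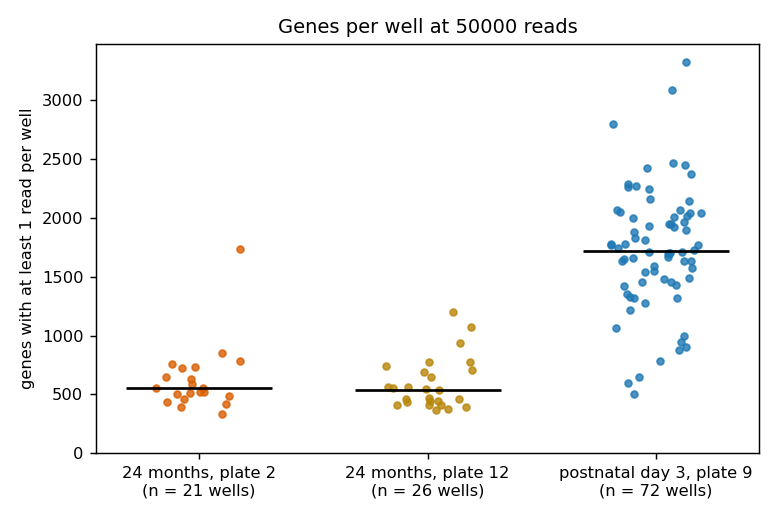
Genes with at least 1 read in each passing well after thinning to 50000 reads (vertical axis) on the 3 plates; points are wells and the line is the plate's median. Medians were 559 and 539.5 at 24 months and 1717.5 at postnatal day 3.

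Some wells stood apart from their labels or from the other wells. Although all wells are labelled male, 22 of 72 newborn wells held reads of Xist, the RNA of the inactive X chromosome of female cells, against 0 of 47 at 24 months. Genes of the Y chromosome were read in 11 newborn wells, of which 1 also held Xist, and in 7 and 5 wells of plates 2 and 12. Myeloid markers were read together in a few old wells: 4 wells of plate 2 and 1 of plate 12 held at least 4 of 15, and no newborn well held more than 1. In these wells the myeloid markers reached a summed level of up to 240895 CPM, the reads of a gene scaled to an equal total per well, while Ptprc, the pan-leukocyte antigen CD45, was at 0 on all 3 plates. Endothelial markers were at 0 in all 8 genes on both old plates, and the B lymphoid list was at 0 on plate 12. On plate 2, 4 of 11 B lymphoid markers had reads, in 2 wells at 50000 reads, of which 1 held 3 markers, with a summed level of up to 4886 CPM. No index pair was shared between the 3 plates.

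A size rule took the place of a test. A gene counted as different where the share of wells with at least 1 read at 50000 reads lay at least 25 percentage points from the newborn share on both old plates, on the same side, and the mean CPM per well lay on that side by at least 2 times with 1 CPM added. Genes were considered where at least 10% of wells held them at either age. Of 5190 such genes, 10 were higher at 24 months (0.193%) and 421 were lower (8.11%). The median difference over all 5190 genes was -15.1 percentage points. Without the newborn wells that hold Xist the rule gave 8 higher and 407 lower, and without the 5 wells with myeloid markers 10 higher and 412 lower.

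The split was another at equal gene number. When newborn wells were thinned further, to 1138 reads, their median of 556 genes was close to that of the old plates. Of the 2236 genes then considered, 41 were higher at 24 months (1.83%) and 73 were lower (3.26%), with a median difference of +4.12 points. All 10 genes called higher at 50000 reads were among the 41, and all 73 were among the 421. Old wells stayed at 50000 reads and CPM was unchanged, so in effect the setting only lowers newborn shares. It can hardly remove a higher call or add a lower one, and this overlap is no support for the calls. Counts at equal gene number are given beside the main groups below.

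**Figure D2:**
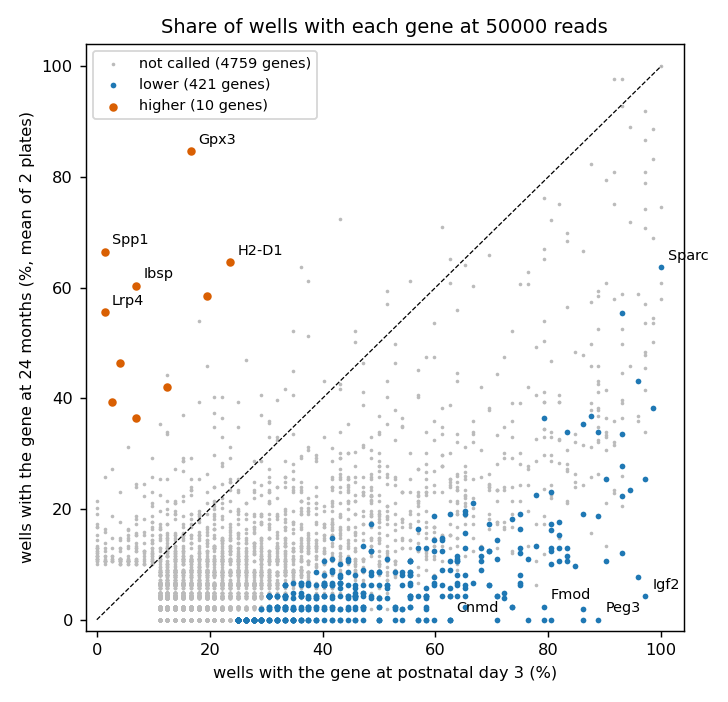
Share of wells with each of 5190 genes at postnatal day 3 (horizontal axis) and at 24 months (vertical axis, mean of plates 2 and 12) at 50000 reads; the dashed line marks equal shares. Most genes lie below the line, and the 10 higher genes stand apart at the upper left.

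The 10 genes higher at 24 months included secreted proteins of bone and serum. Gpx3, a secreted glutathione peroxidase, was read in 81% and 88.5% of wells on plates 2 and 12 and in 16.7% on plate 9 (pooled 40 of 47, interval 71.7% to 93.8%, against 12 of 72, 8.92% to 27.3%). Its mean level was 17533 and 9521 CPM on the old plates and 135.2 CPM on the newborn plate. Per well, the median Gpx3 level at 24 months was 5799 CPM and the highest 79682 CPM, while the newborn median was 0 and the highest 2322 CPM. Most old wells were thus above every newborn well.

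Spp1 (osteopontin) and Ibsp (bone sialoprotein), neighbouring genes on chromosome 5 that encode phosphoproteins of mineralised bone, followed. Spp1 was read in 71.4% and 61.5% of old wells and in 1.39% of newborn wells, at mean levels of 7533 and 22047 CPM against 219.9 CPM. Ibsp was read in 47.6% and 73.1% against 6.94% of wells. In wells with at least 1000 genes the Ibsp call was lost, with 3 of 10 old and 5 of 68 newborn wells holding it, against 26 of 37 old wells under that limit. Both genes were read together in 19 of 47 old wells and in 1 of 72 newborn wells. With Spp1 in 31 and Ibsp in 29 of the 47, this is close to what their separate shares alone would give. In the annotation of GRCm38, Ibsp spans chr5:104299171-104311469 and Spp1 chr5:104435118-104441050, both on the plus strand.

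Other bone genes were less uniform. Of 15 bone matrix genes considered, 2 were higher and 1 was lower, beside 0.193% higher and 8.11% lower over all genes. The median was +10.5 points beside -15.1 over all genes. Mmp13, a collagenase of bone and hypertrophic cartilage, was read in 9.52% and 30.8% of old wells and in 0 of 72 newborn wells, for which the exact upper limit is 4.99% and 3 wells would be 4.17%. Dmp1, a gene of osteocytes, was read in 9.52% and 11.5% of old wells and in no newborn well. Neither met the rule. Sparc (osteonectin), which binds collagen and mineral, was lower, at 61.9% and 65.4% against 100% of wells. The Sparc call was lost under 6 of 21 alternatives, among them without the newborn wells that hold Xist, without the wells with myeloid markers and with at least 1000 genes, where 10 of 10 old and 68 of 68 newborn wells held it. Col1a1, the main collagen gene of bone, was in 47.6% and 73.1% of old and 66.7% of newborn wells. Runx2, the master transcription factor of osteoblasts, was in 9.52% and 26.9% against 6.94% and did not meet the rule.

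Lrp4 and Lifr, which encode receptors, were also higher. Lrp4, a receptor that binds the Wnt inhibitor sclerostin, was read in 38.1% and 73.1% of old wells and in 1.39% of newborn wells at 50000 reads. With all reads the shares were 63.8% and 15.3%. Its mean level was 166.5 and 642 CPM against 1.08 CPM. Lifr, the receptor of leukaemia inhibitory factor, was in 47.6% and 69.2% against 19.4% of wells, at 2841 and 10041 CPM against 64.8 CPM. Without the newborn wells that hold Xist, Lifr did not meet the rule. Of 15 genes of Wnt and BMP signalling considered, Lrp4 was the 1 higher gene and Dkk3 the 1 lower gene. Over all genes 0.193% were higher and 8.11% lower. The lower count is near that share and is no result about the list. Dkk3 met the rule under 12 of 21 alternatives and lost its call with another random seed, at equal gene number, with at least 1000 genes and without the wells with myeloid markers.

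Cp and Inafm2 were also higher. Cp (ceruloplasmin), a copper-carrying ferroxidase, was read in 28.6% and 50% of old wells against 2.78% of newborn wells. The Cp call was lost with another random seed, and with at least 1000 genes, where 2 of 10 old and 2 of 68 newborn wells held it. Inafm2, whose role is not described here, was in 38.1% and 34.6% against 6.94%. Serping1, the C1 inhibitor, was in 28.6% and 42.3% against 11.1% and missed the limit on plate 2.

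Class I antigen presentation was higher in 2 of the 6 genes considered, beside 0.193% over all genes, with a median of +17.6 points. H2-D1 was read in 52.4% and 76.9% of old wells and in 23.6% of newborn wells, at 2916 and 6954 CPM against 273.3 CPM. H2-K1 was read in 38.1% and 46.2% against 12.5%, at 921 and 2587 CPM against 80.1 CPM. Both encode heavy chains that show peptides to cytotoxic T cells. Reads of class I genes are alike in sequence and may be split between them in counting. B2m, the light chain, was in 57.1% and 65.4% against 37.5% of wells and missed the limit on plate 2. It met the limit at equal gene number, a setting that lowers newborn shares only. H2-K1 was the least stable of the 10 calls, met under 14 of 21 alternatives, and without the newborn wells that hold Xist it missed the limit. Without the wells with myeloid markers all 10 genes met the rule.

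The promoters of both class I genes are shown because they share an element. From RefSeq (GRCm38.p6), the window runs from 250 bases before to 50 after the start, H2-D1 at chr17:35262844-35263143 on the plus strand and H2-K1 at chr17:34000298-34000597 on the minus strand. Capitals mark GGGGATTCCCC, a palindrome of the kind bound by NF-kB proteins.
H2-D1: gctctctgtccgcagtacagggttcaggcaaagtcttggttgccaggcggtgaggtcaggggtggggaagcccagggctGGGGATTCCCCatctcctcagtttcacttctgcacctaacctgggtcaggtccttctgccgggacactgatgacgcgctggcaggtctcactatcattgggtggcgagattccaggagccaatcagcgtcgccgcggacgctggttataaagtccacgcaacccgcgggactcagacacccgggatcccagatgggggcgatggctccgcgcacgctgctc
H2-K1: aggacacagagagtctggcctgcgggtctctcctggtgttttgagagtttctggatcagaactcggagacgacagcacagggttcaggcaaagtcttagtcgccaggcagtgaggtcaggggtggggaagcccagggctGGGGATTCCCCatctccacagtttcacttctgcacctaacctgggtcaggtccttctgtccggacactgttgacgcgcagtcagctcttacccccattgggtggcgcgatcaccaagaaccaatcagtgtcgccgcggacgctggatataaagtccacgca
The element was found in 0.0304% of 32851 promoter windows on either strand, in 9 of 27025 genes, H2-Q6 among them. The 2 printed windows share a run of 47 bases that includes the element, so their matches are not independent. The element was picked for print after its hits were seen. It was 1 of 9 motifs searched in the promoters of 9 genes, the 8 higher genes with a window and B2m. The other motifs, on both strands, were GGGGANNNCC (4 genes, 5.73% of all windows; it overlaps the palindrome), GAAANNGAAA (2 genes, 3.44%), AACCACA (1 gene, 5.27%), CCAAT (8 genes, 37.4%), and GGGANTTCC, TTCNNNGAA, TTCNNNNGAA and TGACGTCA, each in 0 of these 9 genes and in 1.68%, 8.30%, 6.95% and 1.79% of windows. A match is a description of the letters and no binding was measured.

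**Figure D3:**
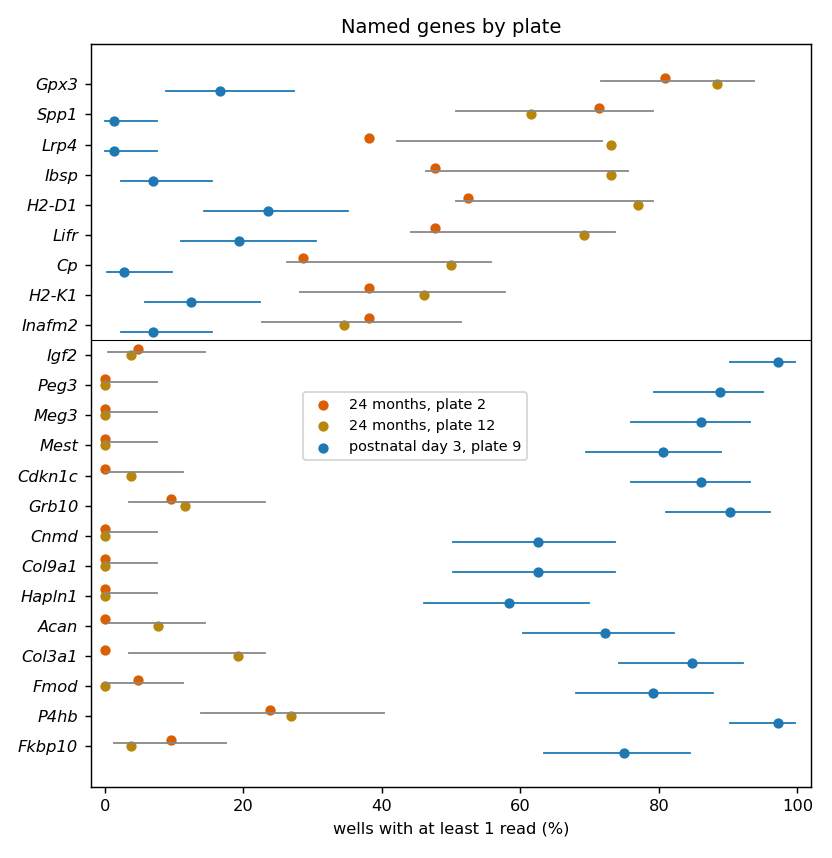
Share of wells with at least 1 read at 50000 reads for 9 of the higher genes (above the line) and 14 of the lower genes, by plate; bars are exact 95% intervals, blue for the newborn plate and grey for both old plates pooled. All genes shown met the rule, which requires both old plates to lie on the same side of the newborn plate.

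Imprinted and fetal growth genes were lower at 24 months in most members. Of 15 considered, 12 were lower and 0 higher, beside 8.11% lower over all genes, with a median of -59.5 points. Igf2 encodes an insulin-like growth factor of the fetus and was found in 97.2% of newborn wells and in 4.76% and 3.85% of old wells, 70 of 72 against 2 of 47. Its mean level was 2364 CPM against 17.3 and 3.00 CPM. Peg3, Meg3, Mest and H19 were read in 88.9%, 86.1%, 80.6% and 76.4% of newborn wells and in 0 of 47 old wells. For 0 of 47 the exact upper limit is 7.55%, and 3 wells would be 6.38%. With all reads these 4 genes were still in 0 of 47 old wells. Cdkn1c, a cell cycle inhibitor, was in 86.1% against 0% and 3.85%, and Grb10, an adaptor that restrains insulin signalling, in 90.3% against 9.52% and 11.5%.

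The 12 lower genes were also counted in each well. Newborn wells held a median of 10 of these 12 genes, and 65 of 72 held at least 5. Old wells held at most 2. The 12 genes were picked by their calls in these same wells, so the counts describe them and are no further evidence. At equal gene number 9 of the 12 imprinted genes considered were lower, beside 3.26% over all genes. The median was -47.8 points beside +4.12 over all genes. Igf2r, the receptor that clears IGF2, did not meet the rule, at 33.3% and 3.85% against 43.1%. On plate 5, the 24-month plate of batch 2, Igf2, Peg3, Mest, H19, Cdkn1c and Grb10 were each read in 0 of 18 wells and Meg3 in 1.

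Cartilage genes were lower in 12 of 23, beside 8.11% over all genes, and higher in none, with a median of -39.7 points. Col2a1, the main collagen of cartilage, was read in 65.3% of newborn wells and in 4.76% and 7.69% of old wells, at 56753 CPM against 133.7 and 151.1 CPM. Cnmd (chondromodulin), Col9a1, Col9a3 and Hapln1, a link protein, were read in 58.3% to 62.5% of newborn wells and in 0 of 47 old wells. Acan (aggrecan) was in 72.2% against 0% and 7.69%, and Col11a1 in 80.6% against 4.76% and 15.4%. Newborn wells were mixed: 46 of 72 held at least 4 of the 10 chondrocyte markers and 15 held none. No old well held 4. Sox9, the cartilage transcription factor, was in 65.3% of newborn wells and in 9.52% and 42.3% of old wells, and did not meet the rule, since plate 12 lay within 25 points and its mean CPM on plate 2 (336) was close to the newborn value (345). At equal gene number 11 of the 19 cartilage genes considered were lower, beside 3.26% over all genes. On plate 5, the 24-month plate of batch 2, Col2a1 and Col11a1 were each read in 5 of 18 wells. Acan and Col9a3 were each in 2 of these 18 wells, Cnmd and Hapln1 in 1 and Col9a1 in 0. The mean Col2a1 level there was 2998 CPM.

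**Figure D4:**
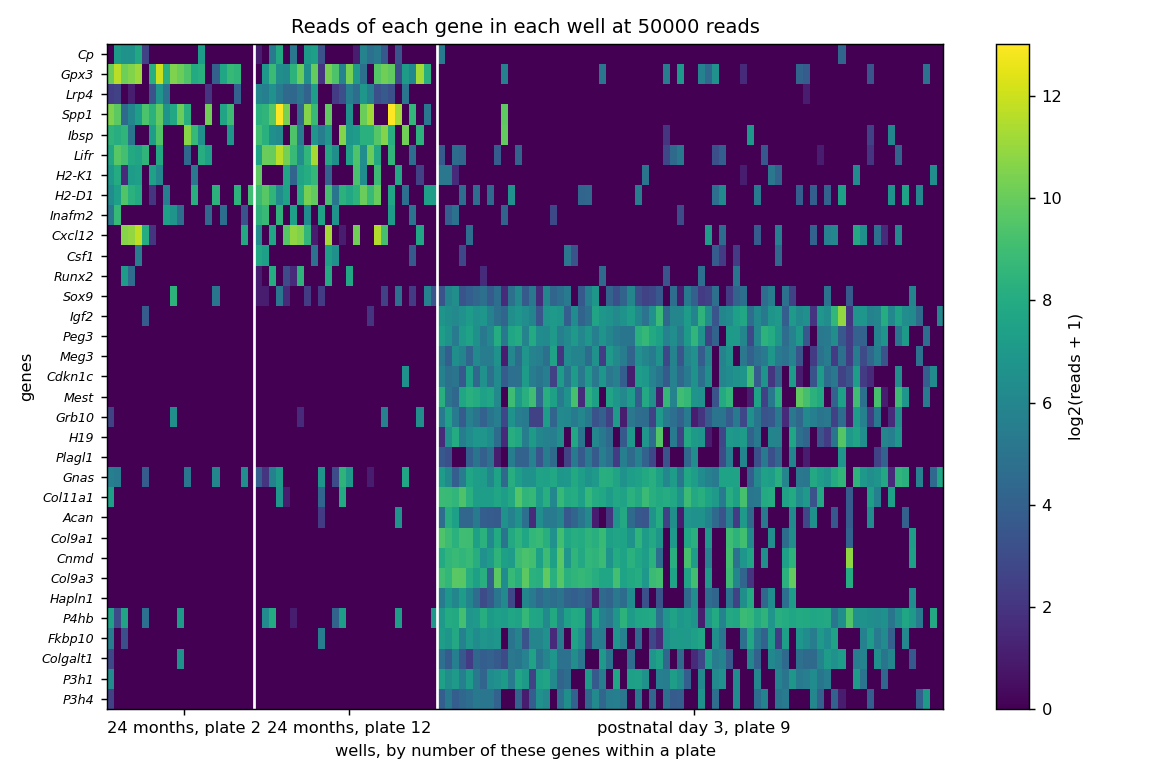
Reads of 33 genes (rows) in each of the 47 old and 72 newborn wells (columns) at 50000 reads, as log2(reads + 1), with wells ordered within a plate by how many of these genes they hold. Imprinted genes fill most newborn wells and the cartilage genes a part of them. Both are sparse in old wells, except for Gnas and Sox9, which have reads in a part of the wells on both old plates.

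Fibrous matrix genes and the enzymes that finish collagens were lower as well. Of 26 fibrous and elastic matrix genes 12 were lower, beside 8.11% over all genes, with a median of -35.7 points. Col3a1 was read in 84.7% of newborn wells against 0% and 19.2%, and Col12a1 in 75% against 4.76% and 7.69%. Among small leucine-rich proteoglycans, Fmod (fibromodulin) was in 79.2% against 4.76% and 0%, at 8709.7 CPM against 2.66 and 0.637 CPM, while Dcn (decorin) was in 52.8% against 42.9% and 50%. Of 18 collagen-processing genes 12 were lower, among them P4hb, a subunit of prolyl 4-hydroxylase, in 97.2% against 23.8% and 26.9%, and Fkbp10, a collagen chaperone, in 75% against 9.52% and 3.85%. At equal gene number 9 of 22 fibrous and 4 of 17 collagen-processing genes were lower, beside 3.26% over all genes. The processing median moved from -45.9 to -16.5 points.

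Marrow stroma genes leaned the other way without meeting the rule. None of 13 was called, with a median of +12.5 points, and 11 differences were positive and 2 negative. Cxcl12 was read in 28.6% and 50% of old wells and in 18.1% of newborn wells, at 7247 and 9376 CPM against 227.2 CPM. With at least 1000 genes Cxcl12 was in 2 of 10 old and 13 of 68 newborn wells, while the median of the list was +13.97 points. Lepr, the leptin receptor of adult marrow stroma, was in 9.52% and 15.4% of old and 0 of 72 newborn wells. Adipoq, Hp and Cebpa were also at 0 in newborn wells, while 4 of the 8 marrow stroma markers had reads there. At least 1 of the 8 was held by 37 of 72 newborn wells, against 10 of 21 and 18 of 26 old wells. At least 2 were held by 3 newborn wells, against 4 and 7 old wells. Pparg, the adipocyte transcription factor, was read in no well of either age. Of the factors that steer osteoclasts, Csf1 was in 4.76% and 23.1% against 9.72%, Tnfsf11 (RANKL) in 0% and 3.85% against 1.39%, and Tnfrsf11b (osteoprotegerin) in 9.52% and 7.69% against 2.78%. Csf1 did not meet the rule, and Tnfsf11 and Tnfrsf11b were below the 10% limit at both ages and were not considered. At these newborn shares none of the 3 could be called lower, and the old shares rest on few wells.

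At equal gene number the medians of the ribosomal, oxidative phosphorylation and mitochondrially encoded lists changed sign. So did the median over all genes, from -15.1 to +4.12 points, and those of several other lists. The heat shock and cell cycle medians stayed negative. Medians at equal gene number run over the genes then considered, which are fewer in most lists. Of 86 cytosolic ribosomal protein genes 10 were lower, a share near the 8.11% over all genes considered, with a median of -48.4 points that became +14.2 at equal gene number. At equal gene number 2 of 81 were lower, near the 3.26% over all genes. Of 68 nuclear oxidative phosphorylation genes 5 were lower, again near 8.11%, with a median of -26.0 points, and 0 of 51 were lower at equal gene number, with a median of +9.22. These counts are no result about the lists. Rpl28 reversed, from -68.1 points to +8.29. Mitochondrially encoded genes had medians of -7.94 and +31.6 points, and the 2 old plates differed: mt-Atp6 was in 85.7% of wells on plate 2 and 46.2% on plate 12. Ccnd2, a G1 cyclin, was the 1 lower gene of 9 cell cycle genes, at 75% against 14.3% and 11.5%. This count is near the 8.11% over all genes and is no result about the list. All 9 differences were negative, and the median newborn share of the 9 was 13.9%. In any list, a gene in under 25% of newborn wells could not be called lower. Cdkn2a, the senescence-associated inhibitor, was read in no well, and none of 7 genes of cell cycle inhibition and senescence met the rule. None of 17 immediate early genes met it, with a median of -11.8 points and +6.41 at equal gene number. Of 10 heat shock genes 2 were lower, beside 8.11% over all genes. These were Hsp90ab1 (86.1% against 28.6% and 42.3%) and Hspd1 (31.9% against 4.76% and 0%), and neither was lower at equal gene number.

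**Figure D5:**
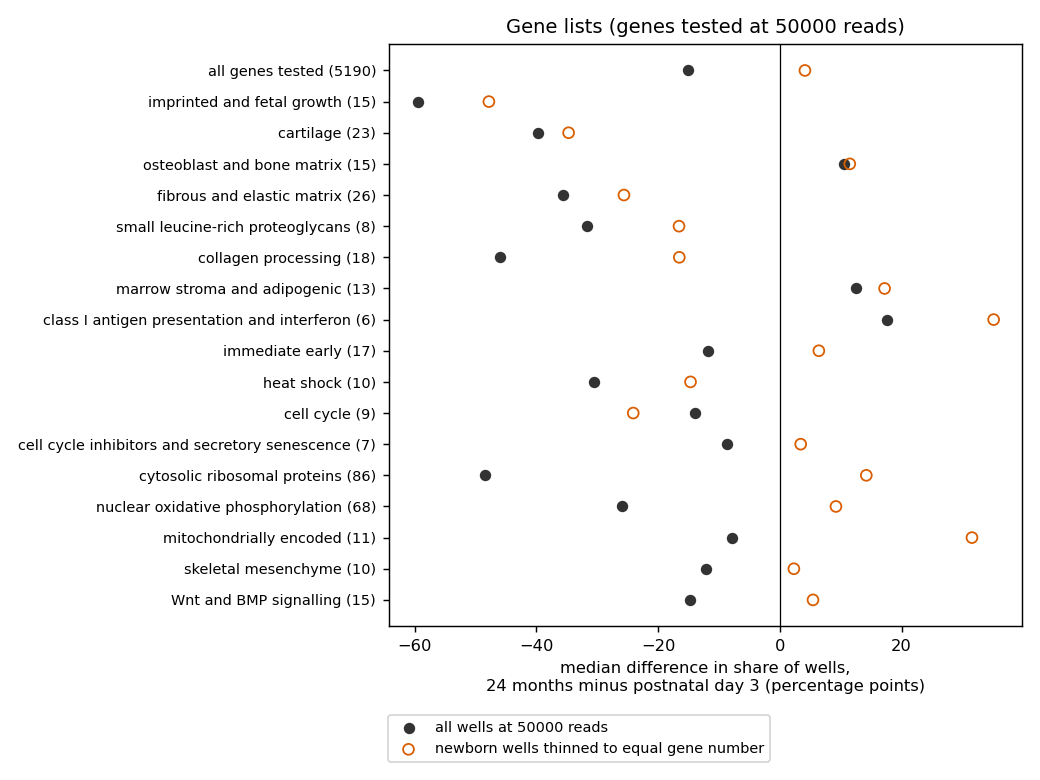
Median difference in the share of wells (24 months minus postnatal day 3, percentage points) over the genes of each list, at 50000 reads (filled) and with newborn wells thinned to equal gene number (open). Imprinted, cartilage and fibrous matrix lists stay below 0 in both, while ribosomal, oxidative phosphorylation and several other lists change sign.

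Of 7 genes of antigens known from sorts of mouse skeletal stem cells, 2 were considered and neither was called at 50000 reads. Cd200, a surface glycoprotein, was read in 33.3% and 34.6% of old and 12.5% of newborn wells and did not meet the rule at 50000 reads. It met the rule at equal gene number, a setting that lowers newborn shares only. Itgav was in 4.76% and 15.4% against 16.7%. Of the 12 lower coding or imprinted genes with the largest difference between the newborn plate and the nearest old plate, Capn6, Nrk, Itm2a and Maged2 lie on the X chromosome. Capn6 and Nrk were in 79.2% and 70.8% of newborn wells and in 0 of 47 old wells. X-linked genes made up 23 of the 421 lower genes (5.46%) and 2.93% of the 5190 considered. Without newborn wells that hold Xist they were 25 of 407.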

How the data were processed

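Values were RSEM expected counts per gene, deposited by the authors in 1 table of 671 wells, made with bcl2fastq 2.18, STAR 2.4 and RSEM 1.2.21 on GRCm38.p6, per the submitters' processing notes. They were rounded to whole numbers. The 92 spike-in rows stayed out of totals, and 28 rows named by a number were not reported. Of the columns, 288 were not used. Ages, plates and batches came from the labels. Wells were thinned to 50000 reads without replacement, and CPM used all gene reads of a well. An age is 1 sample, so differences were called by size. The rule was tested on simulated data, where it missed part of the genes made lower in fewer wells. The limits for passing that test were loosened after earlier runs missed them. Simulated wells of both ages were drawn from newborn wells, so the test could not show how the gap in gene number affects calls. Named genes were the called members of lists (at most 6 a list), the up to 12 coding or imprinted genes a direction that lay farthest from the nearest plate (10 were called higher) and 10 genes always given. Of the genes called higher, 1 is not reported here. The members and lists were chosen with earlier results of these data known. Alternatives without thinning, without newborn wells that hold Xist and without wells with myeloid markers were chosen after seeing the data. Coordinates are from GENCODE for GRCm38. TMM factors came from edgeR 4.0.16 in R 4.3.3 and all else from scipy 1.17.1, pandas 2.3.3 and numpy 2.4.6 under Python 3.11.15.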

Additional observations from a re-analysis of the deposited data

Results flagged for a closer look

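Xist was read in 22 of 72 newborn wells that are labelled male, and in no passing well of 24 months. It lies outside the comparison of the ages and was seen in a check of the labels. Its part in the differences between the ages was not tested beyond leaving these wells out, which gave 8 higher and 407 lower genes, against 10 and 421.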

How the results depend on the processing

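The counts moved with the limits on wells and genes. At 24 months 10 wells passed with at least 1000 genes and 1 with at least 2000 genes and 200000 reads (47 at postnatal day 3), and the latter comparison was not run because plate 12 had no such well. The old median of genes as a share of the newborn median was 32%, 49.2% with at least 1000 genes, 40.8% in cells of 500 to 2000 genes, 30.7% at 200000 reads, 32.9% without thinning and 98.8% at equal gene number by construction. Genes higher and lower, 10 and 421, became 36 and 553 with at least 1000 genes, 12 and 2.5e+02 (6.30% of genes considered) in cells of 500 to 2000 genes, 41 and 73 at equal gene number, 23 and 944 at 15 points, 3 and 1.9e+02 (3.58%) at 40 points, 395 and 3183 by fold of mean CPM, and 46 and 855 with plate 5 of batch 2. Leaving out an old plate gave 13 to 26 higher and 724 to 777 lower, since 1 plate then has to pass. Atp5j2 and Rpl28 changed sign at equal gene number, to +3.98 and +8.29 points. With at least 1000 genes, which leaves 5 wells on each old plate, the calls of Cp, Ibsp, H2-K1, Sparc, Dkk3, Col3a1, Ccnd2, Hsp90ab1, Hspd1 and Rpl28 were lost. Gpx3 and Spp1 met the rule under all 21 alternatives run. No paired analysis was possible because the labels carry no replicate number that pairs wells across ages.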
